A study of Saccharomyces cerevisiae with 12 samples.

Results

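The genes described here serve phosphate uptake and the PHO pathway of Saccharomyces cerevisiae, measured in a leu3 deletion strain and in its LEU3 reference strain. They are PHO84, PHO89, PHO4, PHO5, PHO81, PHM6, PHM8, VTC3, SPL2 and GIT1. These 10 genes, of 5656 with a probe set assigned to 1 gene, were taken by symbol, and each had 1 such probe set. PHO5 lay below an intensity of 12 on all 12 arrays and was not tested, so 9 of the 5321 genes tested are members. Values below 12 were set to 12, and a group that lies wholly below it gives only a bound.

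The deletion strain was CEN.PK540-3A, a haploid prototrophic MATa strain in which a loxP-Kan-loxP cassette replaces most of LEU3, the gene for a transcription factor of leucine and branched-chain amino acid synthesis. The reference strain was CEN.PK113-7D, which is MATa LEU3. Each strain was grown in aerobic chemostats of 1.0 l at 30 °C, pH 5.0 and a dilution rate of 0.10 per h, under either of 2 limitations. Nitrogen-limited (N-lim) medium held 1.0 g/l ammonium sulfate, 5.3 g/l potassium sulfate and glucose in excess, fed at 53 g/l to the deletion strain and 59 g/l to the reference strain to leave about 17 g/l. Carbon-limited (C-lim) medium held 5.0 g/l ammonium sulfate with 6.0 g/l ethanol as the carbon source. All 4 groups received 3.0 g/l potassium dihydrogen phosphate, the phosphate salt of the medium, and 0.5 g/l magnesium sulfate heptahydrate. No group was limited by phosphate by design, and the limiting nutrient and the carbon source changed together. Each group has 3 arrays. The labels do not say that these came from separate cultures, so the p-values measure the spread between arrays, which may be technical. The deletion strain is a single strain.

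Yeast senses low phosphate through the PHO pathway. When phosphate is plentiful, the cyclin-dependent kinase Pho85 with its cyclin Pho80 phosphorylates the transcription factor Pho4, which then leaves the nucleus. When phosphate is scarce, Pho81 inhibits the kinase, and Pho4, together with Pho2, switches on carriers, secreted phosphatases and the enzymes that store phosphate as polyphosphate. Phosphorylation acts on the Pho4 protein, which arrays of RNA do not measure.

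LEU3 read 0.3 to 0.6 on the deletion arrays and 59.9 to 110.4 on the reference arrays. Whether its probes lie inside the deletion was not checked. Spearman correlations between arrays were 0.959 to 0.992 within groups and 0.906 to 0.972 between groups. For actin, the 3' signal divided by the 5' signal, which is higher where labelled transcripts are shorter, was 1.54 to 1.91 on the 6 deletion arrays, against 2.45 to 3.29 on the N-lim reference arrays and 3.31, 9.27 and 13.98 on the C-lim reference arrays 1, 2 and 3. The SPT15 ratio was 8.08 and 10.05 on C-lim reference arrays 2 and 3 and between 2.56 and 4.09 on the other 10. A bacterial control transcript, thrX, read 3094.8 and 2747.7 on N-lim reference arrays 2 and 3 and at most 1.6 elsewhere. Many results that rest on these arrays are also given without them, or with the actin ratio as a term in the model. A result given with all arrays only should not be read as having held in those fits. Since the actin ratio was lower on every deletion array than on any reference array, that term overlaps with strain. A strain effect is then estimated less precisely, most of all on the C-lim arrays, where the ratios lie farthest apart. A call lost with the term therefore does not show that there was no change. All 6 a-cell markers, the mating type of both strains, were above 12 on every array. Of 4 alpha-cell markers, MF(ALPHA)2 was below 12 throughout and MF(ALPHA)1 stood at 270.0 to 356.6 on the N-lim reference arrays, against 28.8 to 47.4 on the N-lim deletion arrays, with 32.0 to 34.9 on the C-lim deletion and 17.9 to 25.8 on the C-lim reference arrays. STE3, the a-factor receptor, lay between 9.1 and 36.4, and SAG1, the alpha-agglutinin, between 71.7 and 164.5. The part of these markers in the results was not tested.

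In carbon-limited ethanol cultures the deletion strain had more PHO84, PHO89 and PHO4 RNA than the reference strain, 6.90-fold, 2.12-fold and 7.63-fold. In nitrogen-limited glucose cultures it had more PHO89 RNA, 1.54-fold, and less PHO81, PHM6, PHM8 and VTC3 RNA, by 1.46-fold to 2.00-fold. The difference between strains itself differed between the limitations for PHO84, PHO4, PHM6 and VTC3. These calls are not equally firm. With the actin ratio as a term, PHO89 lost its call under both limitations and PHO4 under carbon limitation. The PHO4 and VTC3 differences between limitations were lost with it too. PHO84 under carbon limitation, PHM8 under nitrogen limitation and the PHO84 and PHM6 differences passed under all 24 other settings. PHO5, the classical secreted acid phosphatase of the starvation response, read 0.2 to 3.9 on every array. In bulk RNA a change in the share of cells that express a gene and a change in RNA per cell cannot be told apart.

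**Figure D1:**
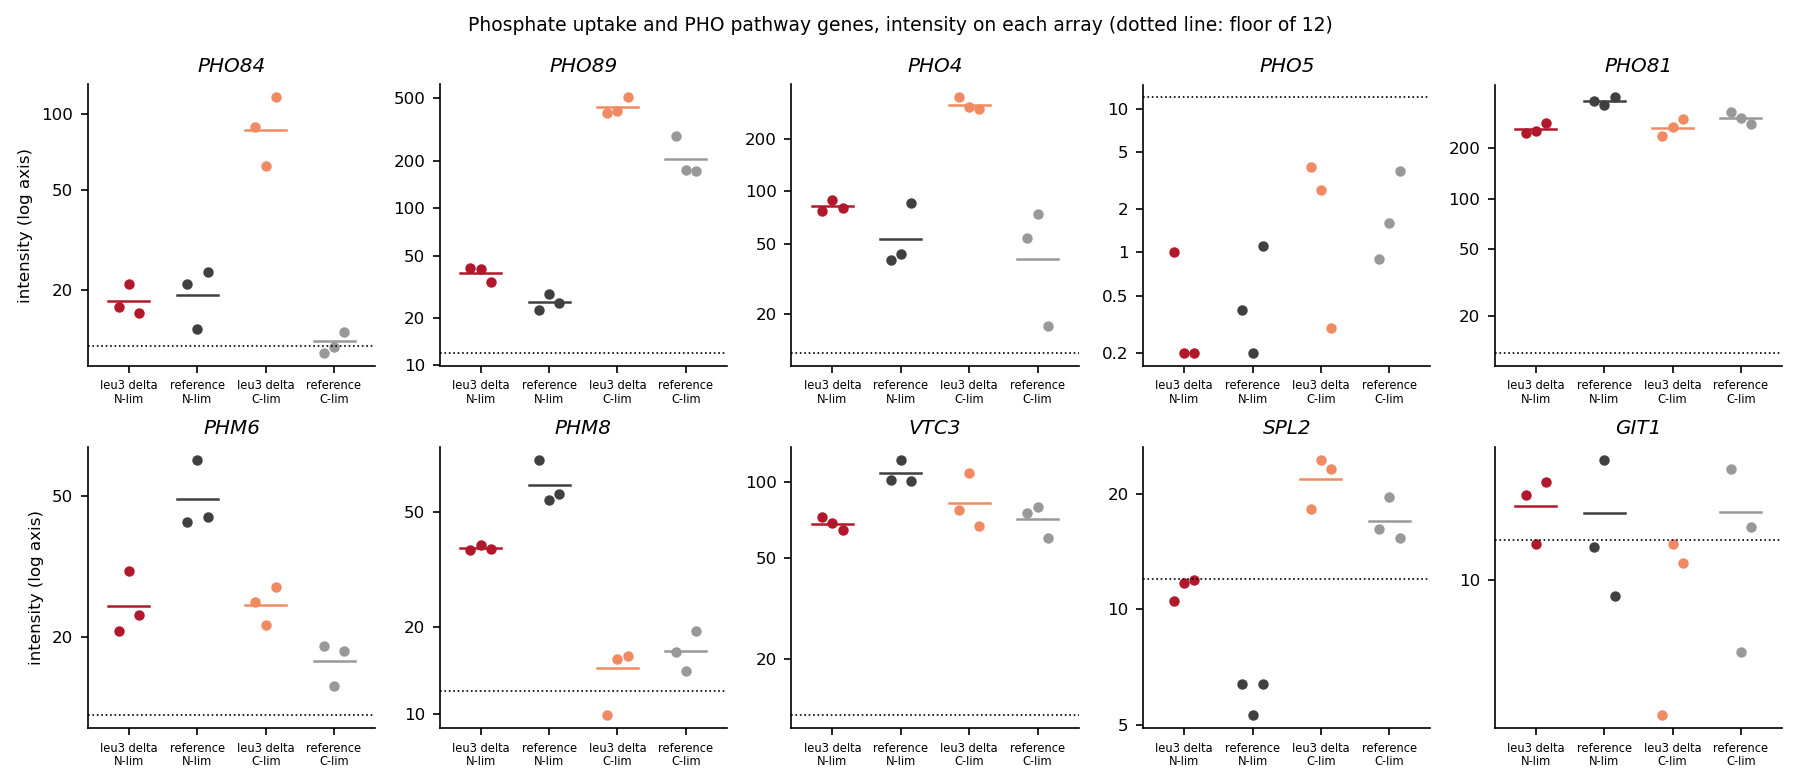
Intensity on a log axis (each panel with its own range) of the 10 genes on each of the 12 arrays, with the mean of the floored log2 values of a group as a bar, left out where all 3 arrays lie below the floor of 12 (dotted line). The 3 C-lim deletion arrays sit at 62.4 to 116.5 for PHO84 and at 293.5 to 343.8 for PHO4, above the 9 other arrays in each panel.

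PHO84 encodes the high-affinity proton-coupled phosphate carrier of the plasma membrane. Its intensity was 89.0, 62.4 and 116.5 on the C-lim deletion arrays, against 11.3, 11.9 and 13.7 on the C-lim reference arrays. All 3 deletion arrays lay above all 3 reference arrays, and 2 of the reference arrays were below 12, so the floor makes the fold smaller. The log2 change was 2.79 ± 0.22 (SE, n = 3 arrays per group, limma adjusted p = 4.35e-06). Under nitrogen limitation PHO84 read 17.2, 21.2 and 16.2 on the deletion arrays, against 21.2, 14.1 and 23.7 on the reference arrays. These groups overlapped, with a log2 change of -0.09 ± 0.22 that did not pass (limma adjusted p = 0.825; 95% interval -0.56 to 0.39). The strain effect under nitrogen limitation minus that under carbon limitation was -2.87 ± 0.32 on the log2 scale (limma adjusted p = 4.51e-05). The carbon-limited effect passed under all 24 other settings that were run, at 1.79 to 3.02. RefSeq's R64 assembly lists an antisense RNA, YNCM0001W, over PHO84, and the strand that the probes read was not checked.

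PHO89 encodes the sodium-coupled phosphate carrier, known for its role at alkaline pH. On the C-lim deletion arrays it read 404.5, 413.7 and 508.1, against 290.0, 176.2 and 173.7 on the C-lim reference arrays. The groups lay apart, and the 2 lowest reference values are those of arrays 2 and 3, with the high actin ratios. The log2 change was 1.09 ± 0.19 (limma adjusted p = 0.00127). It did not pass without those 2 arrays (0.60, limma adjusted p = 0.0945) or with the actin ratio as a term (0.32, limma adjusted p = 0.67), and the part of RNA quality in it was not tested. Under nitrogen limitation PHO89 read 41.7, 41.0 and 33.9 on the deletion arrays, against 22.6, 28.4 and 24.9 on the reference arrays. Here too the groups lay apart, at a log2 change of 0.62 ± 0.19 (limma adjusted p = 0.0313), a call that held in 16 of the 24 other settings. It was lost with the actin ratio as a term (0.38, limma adjusted p = 0.118). Leaving out 1 array at a time lost it without N-lim deletion array 1 or 2, or N-lim reference array 1 or 3, at 0.54 to 0.61. Settings that only leave out C-lim arrays keep the change at 0.62, so they test this call little. Without N-lim reference arrays 2 and 3 the change was 0.78. The strain effects under the 2 limitations differed by -0.47 ± 0.27, which did not pass (limma adjusted p = 0.245).

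PHO4, the gene of the pathway's transcription factor, read 343.8, 301.8 and 293.5 on the C-lim deletion arrays, against 54.0, 74.7 and 17.0 on the C-lim reference arrays. The deletion arrays agreed closely and all stood above the reference arrays, whose spread was the widest of the 4 groups on the log scale. The log2 change was 2.93 ± 0.40 (limma adjusted p = 0.000218). It was 2.53 without C-lim reference arrays 2 and 3 (limma adjusted p = 0.00263) and, with the actin ratio as a term, 2.03 and no longer past the threshold (limma adjusted p = 0.214). Under nitrogen limitation PHO4 read 77.3, 89.2 and 80.1 on the deletion arrays, against 40.8, 44.2 and 86.1 on the reference arrays. One reference array reached the level of the deletion arrays, and the change of 0.61 ± 0.40 did not pass (limma adjusted p = 0.295; 95% interval -0.24 to 1.46). The difference between the strain effects, -2.32 ± 0.56, passed (limma adjusted p = 0.0115). That call was lost with the actin term (-1.70, limma adjusted p = 0.132), without N-lim reference arrays 2 and 3 (-1.92, limma adjusted p = 0.1) and with no filter on low values (-2.32, limma adjusted p = 0.055).

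PHO81 encodes the inhibitor of the Pho80-Pho85 kinase, and its gene is itself a target of Pho4. On the N-lim deletion arrays it read 245.1, 252.7 and 283.0, against 380.3, 361.1 and 401.6 on the N-lim reference arrays. The groups lay apart, and the deletion strain was lower by a log2 change of -0.55 ± 0.14 (limma adjusted p = 0.0103). Under carbon limitation it read 234.5, 266.9 and 296.2 on the deletion arrays, against 327.9, 303.7 and 278.3 on the reference arrays. These overlapped and the change of -0.19 ± 0.14 did not pass (limma adjusted p = 0.315), nor did the difference between the 2 strain effects (-0.36 ± 0.20, limma adjusted p = 0.215).

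PHO80, the gene of the cyclin that acts with Pho85 against Pho4, is described here only for the values that bear on PHO4 and PHO81. It read 38.1, 29.6 and 29.0 on the C-lim deletion arrays, against 63.9, 58.8 and 70.0 on the C-lim reference arrays, a log2 change of -1.003 ± 0.159 (limma adjusted p = 0.000605). Like the PHO4 change, this one missed the threshold once the actin ratio was a term (-0.84, limma adjusted p = 0.214) and passed without C-lim reference arrays 2 and 3 (limma adjusted p = 0.0211). On the N-lim arrays the strains overlapped, at 69.9 to 87.1 in the deletion strain and 68.3 to 88.5 in the reference strain. PHO85, the kinase gene, did not pass in either strain comparison. PHO2, the gene of Pho4's partner, read between 8.1 and 14.3 on the 12 arrays and did not pass either.

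PHM6 and PHM8 are genes of the phosphate starvation response. PHM8 encodes a phosphatase that acts on nucleotides, whereas the product of PHM6 has no well-defined function. PHM6 read 20.8, 30.7 and 23.0 on the N-lim deletion arrays, against 42.2, 63.4 and 43.7 on the N-lim reference arrays. The deletion arrays were all lower, at a log2 change of -0.998 ± 0.193 (limma adjusted p = 0.00183). On the C-lim arrays the order was the other way round, with 25.1, 21.6 and 27.6 in the deletion strain against 18.8, 14.5 and 18.2 in the reference strain. Those ranges did not overlap, yet the change of 0.53 ± 0.19 missed the threshold (limma adjusted p = 0.0518). The difference between the strain effects was -1.53 ± 0.27 (limma adjusted p = 0.00222) and passed under all 24 other settings, at -1.69 to -0.92.

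PHM8 read 36.9, 38.2 and 37.0 on the N-lim deletion arrays, against 75.6, 54.6 and 57.6 on the N-lim reference arrays. The groups lay apart at a log2 change of -0.73 ± 0.17 (limma adjusted p = 0.00639), and this call held under all 24 other settings. On the C-lim arrays PHM8 was near the floor, at 9.9, 15.5 and 15.9 in the deletion strain and 16.4, 14.1 and 19.4 in the reference strain. The ranges overlapped, and the change of -0.20 ± 0.17 did not pass (limma adjusted p = 0.401).

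VTC3 encodes a subunit of the vacuolar transporter chaperone complex, which makes polyphosphate and passes it into the vacuole. It read 72.5, 68.4 and 64.2 on the N-lim deletion arrays, against 101.6, 122.2 and 101.0 on the N-lim reference arrays. The strains lay apart at a log2 change of -0.66 ± 0.18 (limma adjusted p = 0.0159). On the C-lim arrays VTC3 read 77.6, 108.0 and 66.6 in the deletion strain and 75.5, 79.2 and 59.9 in the reference strain. These overlapped, with a change of 0.21 ± 0.18 that did not pass (limma adjusted p = 0.398). The difference between the strain effects was -0.87 ± 0.25 (limma adjusted p = 0.0272), and 9 of the 24 other settings lost that call.

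The nitrogen-limited strain differences were also fitted without N-lim reference arrays 2 and 3, which carry the thrX signal. That leaves 1 reference array under nitrogen limitation. The log2 changes were then 0.78 for PHO89, -0.55 for PHO81, -0.79 for PHM6, -1.02 for PHM8 and -0.57 for VTC3. With all arrays they were 0.62, -0.55, -0.998, -0.73 and -0.66 in the same order. Thus PHO81 was unchanged, PHM6 and VTC3 changed less, and PHO89 and PHM8 changed more. The calls of PHO89, PHO81, PHM6 and VTC3 were lost in that less precise fit, where a lone array is assumed to vary like the other groups. VTC3 also lost its call when N-lim deletion array 3 (-0.61) or N-lim reference array 2 (-0.57) was left out.

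The other subunit genes of the same complex were lower in the deletion strain under nitrogen limitation as well. VTC1 read 432.5, 418.0 and 443.0 on the N-lim deletion arrays, against 683.4, 633.3 and 699.0 on the N-lim reference arrays, a log2 change of -0.64 ± 0.12 (limma adjusted p = 0.00165). VTC2 changed by -0.59 ± 0.17, VTC4 by -0.45 ± 0.15 and VTC5 by -0.67 ± 0.17, with limma adjusted p-values of 0.0186, 0.0355 and 0.0122. For VTC1, VTC2, VTC4 and VTC5 all 3 deletion arrays lay below all 3 reference arrays. With each array centred on its median, the VTC2, VTC4 and VTC5 changes kept their direction and missed the threshold, at -0.45, -0.31 and -0.53 (limma adjusted p = 0.0711, 0.142 and 0.0507). Without N-lim reference arrays 2 and 3, VTC1 passed, whereas VTC2 (-0.66), VTC4 (-0.43) and VTC5 (-0.59) did not. VTC2 also lost its call without N-lim deletion array 2 (-0.47) or N-lim reference array 1 (-0.56), and VTC5 without N-lim deletion array 2 (-0.56). VTC4 lost it when any of the 6 N-lim arrays other than deletion array 2 was left out, at -0.51 to -0.33. Averaging the probe sets of VTC5 gave 0.00, so its probe sets disagree. On the C-lim arrays no VTC gene passed.

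**Figure D2:**
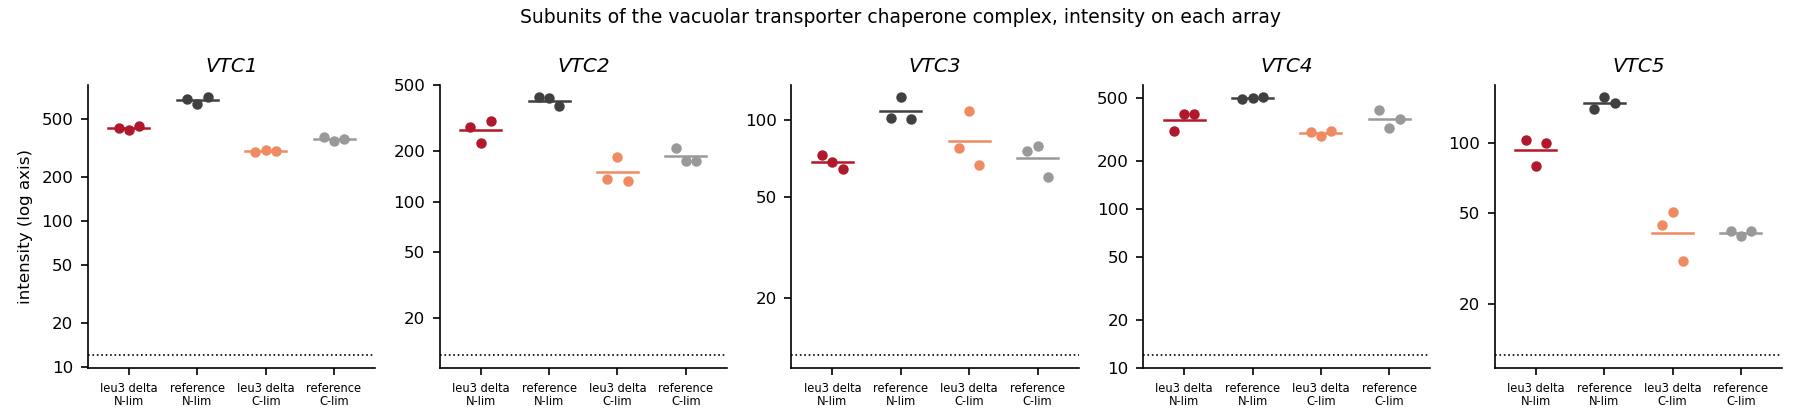
Intensity on a log axis (each panel with its own range) of the 5 vacuolar transporter chaperone genes on each array, with the group mean of log2 values as a bar. On the N-lim arrays the deletion strain lies below the reference strain in every panel, by log2 changes of -0.45 (VTC4) to -0.67 (VTC5).

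SPL2 encodes an inhibitor of low-affinity phosphate carriers, and it was above 12 only on the 6 C-lim arrays. It read 18.3, 24.6 and 23.3 on the C-lim deletion arrays, against 16.2, 19.6 and 15.4 on the C-lim reference arrays. The groups overlapped and the change of 0.37 ± 0.15 did not pass (limma adjusted p = 0.073). The N-lim arrays read 10.5, 11.7 and 11.9 in the deletion strain and 6.4, 5.3 and 6.4 in the reference strain, both wholly below 12, so no strain difference is given there. GIT1, the gene of the permease for glycerophosphoinositol, was above 12 on 5 of the 12 arrays and never above 17.3. It passed in no comparison.

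Under nitrogen limitation 1 of the 9 tested genes was higher in the deletion strain, 4 were lower and 4 did not pass. Across all genes tested 22.2% passed in that comparison, 6.05% higher and 16.1% lower. The median log2 change was -0.09 over the 9 genes and -0.11 over all genes tested. Under carbon limitation 3 were higher, none lower and 6 did not pass, where 28.1% of all genes passed, 17.4% higher and 10.7% lower. The medians there were 0.37 and 0.05. In the difference between the strain effects 4 of the 9 passed, all with the nitrogen-limited effect below the carbon-limited one. The share over all genes was 18.3%, with 5.24% above and 13.1% below, and the medians were -0.53 and -0.20. Centring each array on its median moved the median of all genes to 0.04 under nitrogen limitation, to -0.12 under carbon limitation and to 0.11 for the difference between the effects. With it, 538 genes were higher and 485 lower under nitrogen limitation (322 and 859 without centring), 539 and 996 under carbon limitation (926 and 568), and 614 and 241 in the difference (279 and 697). No called change of a member turned its direction under any of the 24 other settings. SPL2 enters the nitrogen-limited median and that of the difference with both strains at the floor.

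**Figure D3:**
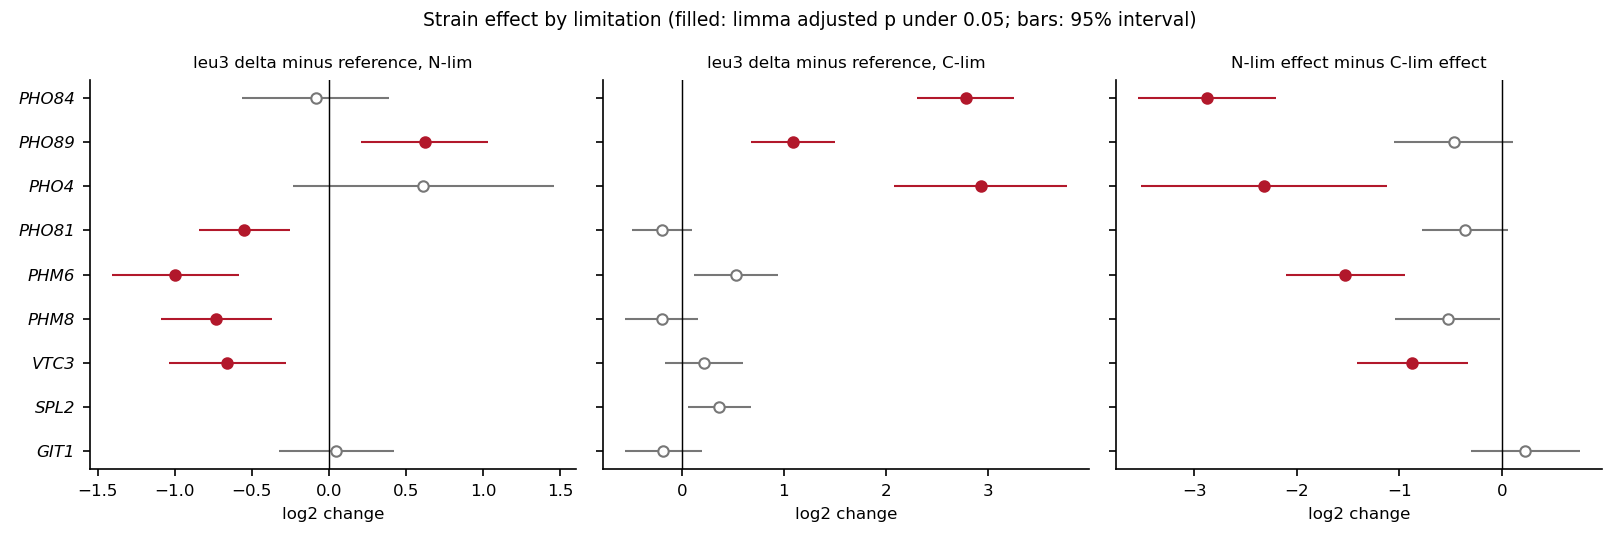
Log2 change between strains (deletion minus reference) of the 9 tested genes under each limitation, and the difference of the 2 effects in the right panel. Points are fitted changes, filled where the limma adjusted p is under 0.05, with 95% intervals, and SPL2 is left out where both strains were below 12. PHO84 (2.79) and PHO4 (2.93) lie farthest to the right under carbon limitation.

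The limitation effect, N-lim minus C-lim, was read in each strain. PHO89 had the largest limitation effect of the members in both strains. Its N-lim values were 33.9 to 41.7 in the deletion strain, against 404.5 to 508.1 on that strain's C-lim arrays, which is 11.4-fold lower (log2 -3.51 ± 0.19, limma adjusted p = 8.25e-10). In the reference strain the N-lim values were 22.6 to 28.4, against 173.7 to 290.0 on the C-lim arrays, 8.22-fold lower (log2 -3.04 ± 0.19, limma adjusted p = 4.94e-09). Both changes passed under all 24 other settings.

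PHM8 was higher on the N-lim arrays of both strains. The log2 change was 1.38 ± 0.17 in the deletion strain (limma adjusted p = 1.16e-05) and 1.91 ± 0.17 in the reference strain (limma adjusted p = 2.81e-07). The deletion strain's C-lim group holds 1 array below 12, so its change is reduced by the floor. SPL2 was lower on the N-lim arrays of both strains, by at least 1.82-fold in the deletion strain (limma adjusted p = 0.000264) and at least 1.41-fold in the reference strain (limma adjusted p = 0.0111). The call in the reference strain held in 18 of the 24 other settings.

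PHO84 and PHO4 fell under nitrogen limitation in the deletion strain, with log2 changes of -2.26 ± 0.22 (limma adjusted p = 1.05e-06) and -1.93 ± 0.40 (limma adjusted p = 0.00141). In the reference strain PHO84 changed by 0.61 ± 0.22 (limma adjusted p = 0.0342), with 2 C-lim arrays below 12, and 11 of the 24 other settings lost that call. PHO4 did not pass there (0.39 ± 0.40, limma adjusted p = 0.435). The tests of these differences between strains are the interaction values given above, since both contrasts hold the same 4 groups.

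PHM6 and VTC3 rose under nitrogen limitation in the reference strain. PHM6 changed by 1.52 ± 0.19 (limma adjusted p = 1.5e-05) and VTC3 by 0.60 ± 0.18 (limma adjusted p = 0.0121), of which VTC3 lost its call in 7 of the 24 other settings. In the deletion strain PHM6 changed by -0.01 ± 0.19 (limma adjusted p = 0.981) and VTC3 by -0.27 ± 0.18 (limma adjusted p = 0.264). PHO81 passed in neither strain, with log2 changes of -0.03 ± 0.14 in the deletion strain and 0.33 ± 0.14 in the reference strain.

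In the deletion strain 1 of the 9 genes was higher under nitrogen limitation, 4 were lower and 4 did not pass, where 35.8% of all tested genes passed, 18.1% higher and 17.8% lower. The median log2 change was -0.27 over the 9 genes and 0.02 over all genes. In the reference strain 4 were higher, 2 lower and 3 did not pass, against 47.6% of all tested genes, 32.6% higher and 14.9% lower. The medians were 0.39 and 0.19. With centring, the median of all genes in the reference strain was -0.07, and 951 genes were higher and 1370 lower, in place of 1737 and 795.

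**Figure D4:**
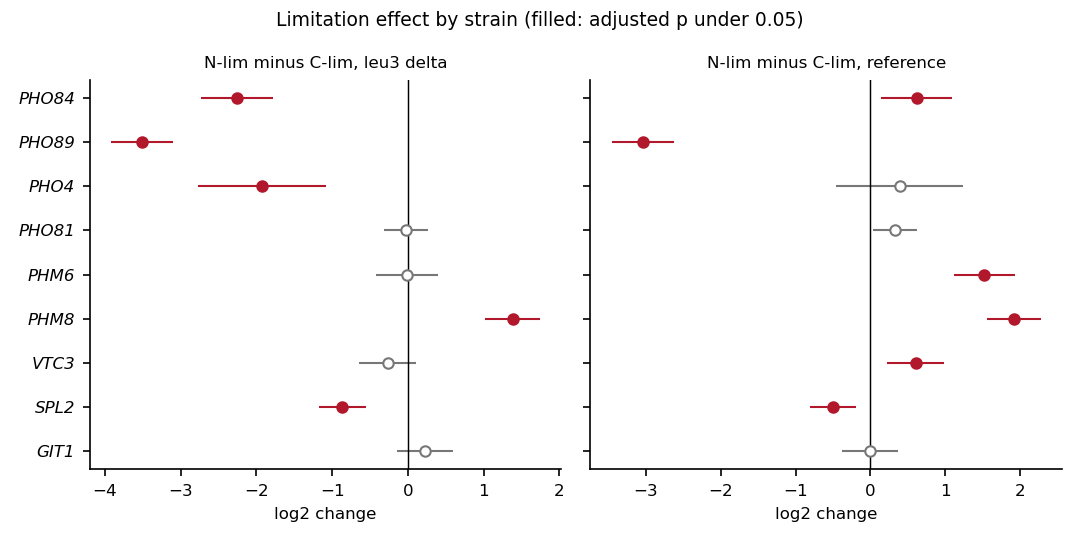
Log2 change between limitations (N-lim minus C-lim) of the 9 tested genes in the deletion strain (left) and the reference strain (right), filled where the limma adjusted p is under 0.05, with 95% intervals. PHO89 lies near -3.51 and -3.04, whereas PHO84 is at -2.26 in the deletion strain and 0.61 in the reference strain.

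The rest of the pathway was read from a list of 31 genes, of which 29 had a single-gene probe set and 28 were tested. Under nitrogen limitation 2 were higher in the deletion strain, 6 were lower and 20 did not pass, where 22.2% of all tested genes passed. Under carbon limitation 4 were higher, 3 lower and 21 did not pass, where 28.1% of all tested genes passed. None of the 6 genes of low-affinity carriers and carrier trafficking (PHO87, PHO90, PHO91, PHO86, SND3, also called PHO88, and SYG1) passed in either strain comparison. Of 7 tested regulators, PHO80 under carbon limitation was the single pass.

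The phosphatases moved in both directions. PHO3, the acid phosphatase gene beside PHO5 that is known for thiamine-dependent control, had a mean intensity of 91.6 ± 13.1 on the N-lim deletion arrays and 210.9 ± 33.8 on the N-lim reference arrays (SD, n = 3 each). Its log2 change was -1.20 ± 0.19 there (limma adjusted p = 0.000342) and -0.59 ± 0.19 under carbon limitation (limma adjusted p = 0.0281). SDT1, a nucleotidase gene, averaged 813.5 ± 126.3 on the N-lim deletion arrays and 269.9 ± 21.0 on the N-lim reference arrays (SD, n = 3 each), a log2 change of 1.58 ± 0.15 (limma adjusted p = 3.12e-06).

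SDT1 was higher under carbon limitation too, by 0.57 ± 0.15 (limma adjusted p = 0.0105). PHO13, a metabolite phosphatase gene, was higher under carbon limitation by 0.91 ± 0.23 (limma adjusted p = 0.00957). With the actin ratio as a term its change turned to -0.26, and without C-lim reference arrays 2 and 3 it was 0.22, neither past the threshold. PHO11 and PHO12, near-identical secreted acid phosphatase genes, share 1 probe set that could not be assigned to either. That probe set averaged 72.5 on the N-lim deletion and 68.2 on the N-lim reference arrays, and 65.5 on the C-lim deletion and 67.8 on the C-lim reference arrays, with overlapping ranges.

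Of the 7 polyphosphate genes, 4 were lower under nitrogen limitation, the VTC genes named above. Across all tested genes 16.1% were lower there, and 17.4% were higher under carbon limitation. Under carbon limitation 2 of the 7 were higher, the polyphosphatase genes PPN2 (1.01 ± 0.23, limma adjusted p = 0.00475) and PPX1 (0.71 ± 0.15, limma adjusted p = 0.00335). Both lost the call without C-lim reference arrays 2 and 3 (0.56 for each, limma adjusted p = 0.0891 for PPN2 and 0.0942 for PPX1). With the actin ratio in the model the changes were 0.10 for PPN2 and 0.42 for PPX1, neither past the threshold (limma adjusted p = 0.914 and 0.527). GPP1, a glycerol-3-phosphatase gene, was higher under nitrogen limitation (1.19 ± 0.17, limma adjusted p = 0.000164). PHM7 was lower under both, at -1.03 ± 0.27 (limma adjusted p = 0.0126) and -1.02 ± 0.27 (limma adjusted p = 0.012). Its nitrogen-limited change was -0.65 without N-lim reference array 1 (limma adjusted p = 0.0558), -0.94 without N-lim deletion array 1, -0.79 with a floor of 25 and -1.03 with only the arrays of the contrast, none of them past the threshold. The carbon-limited calls of PHO3, SDT1 and PHM7 were lost both without C-lim reference arrays 2 and 3 and with the actin term. PHO3 also lost it with a floor of 25, with no filter on low values and with only the arrays of the contrast. Leaving out C-lim deletion array 1 (-0.50) or 3 (-0.51), or C-lim reference array 2 (-0.46), lost the PHO3 call as well. SDT1 lost its call without C-lim deletion array 2 (0.49), and PHM7 without C-lim deletion array 1 (-0.85).

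In the reference strain 17 of the 28 genes were higher on the N-lim than on the C-lim arrays, 2 were lower and 9 did not pass, where 32.6% of all tested genes were higher and 14.9% lower. Those higher include 6 of the 7 polyphosphate genes, with VTC5 at 1.87 ± 0.17 (limma adjusted p = 4.76e-07) and PPN2 at 1.90 ± 0.23 (limma adjusted p = 7.52e-06), and all 4 tested phosphatases. Of the 17, 6 missed the threshold when each array was centred on its median, among them VTC4 (0.17) and PHO3 (0.44). With the actin ratio in the model 8 of the 17 missed it, among them VTC4 (0.25), PPX1 (0.59) and PHO13 (0.42). Some of the 17 also moved when reference arrays 2 and 3 of a limitation were left out, which leaves 1 array there. SIW14, PHO86, VTC4 and GDE1 changed by 0.46, 0.40, 0.44 and 0.37 with all arrays. Without N-lim reference arrays 2 and 3 they changed by 0.12, 0.235, 0.42 and 0.40. Without C-lim reference arrays 2 and 3 they changed by 0.62, 0.48, 0.25 and 0.20. In the deletion strain 7 were higher, 2 lower and 19 did not pass, where 35.8% of all tested genes passed.

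**Figure D5:**
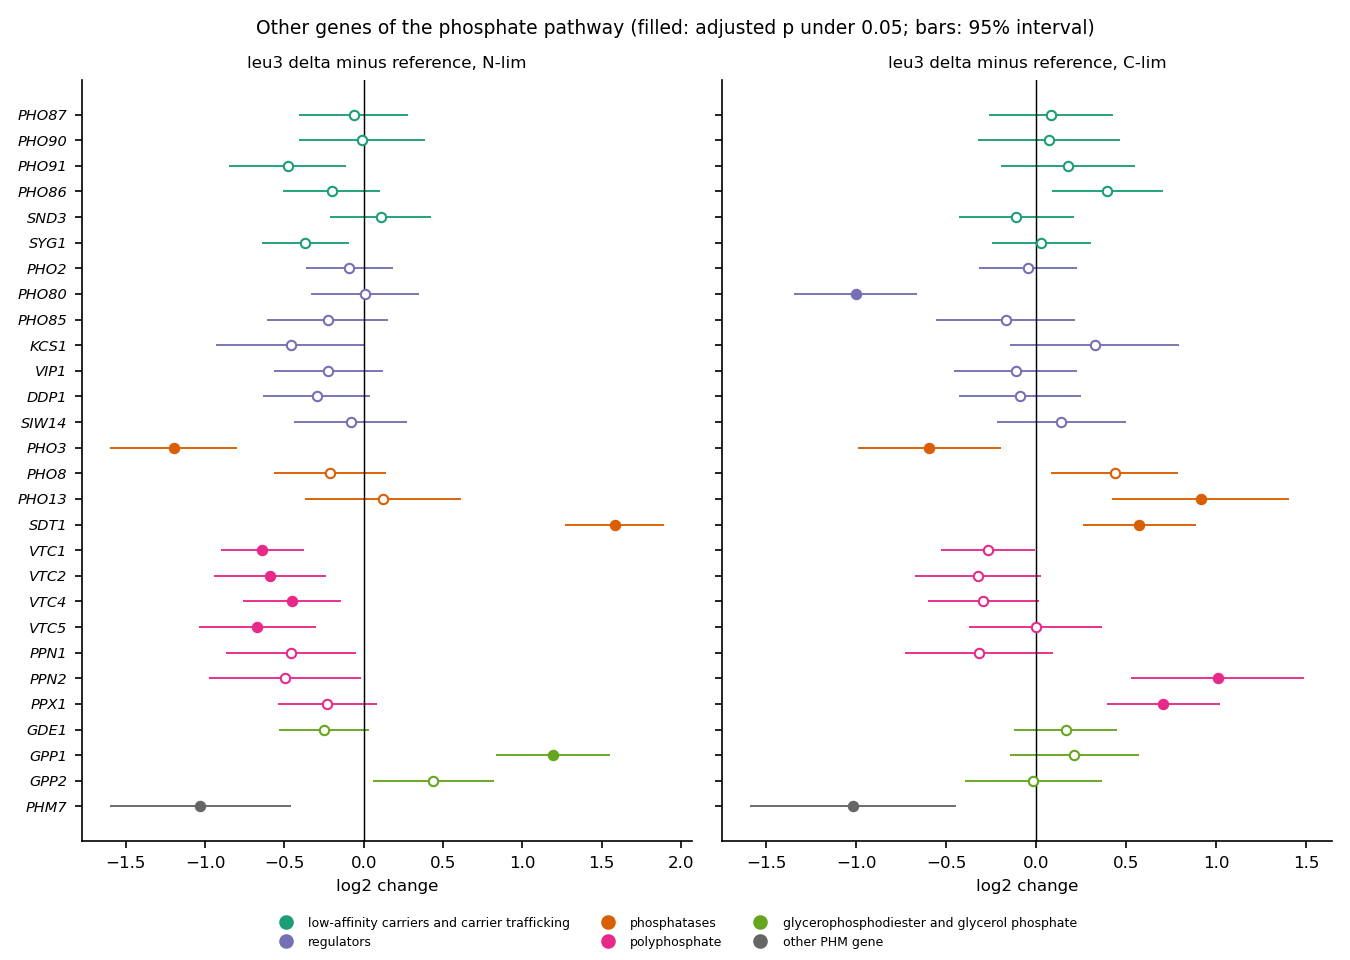
Log2 change between strains (deletion minus reference) of the 28 other tested genes of the phosphate pathway under nitrogen (left) and carbon (right) limitation, coloured by list, filled where the limma adjusted p is under 0.05, with 95% intervals. The VTC genes lie left of 0 under nitrogen limitation, and PHO80 (-1.003) is the single filled regulator.

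Likeness between expression patterns was described by Pearson's r of the floored log2 values over the 12 arrays, which hold 4 groups, so that r mainly follows the group means. Within the tested members the highest were PHO89 with SPL2 (0.926) and PHO84 with PHO4 (0.863), and the lowest PHO89 with PHM8 (-0.952). Among 5222 genes ranked, those most like PHO84 were YNL184C (0.947), AIM24 (0.926) and RCF1 (0.925), and those most like PHO4 were GCR2 (0.960), SMI1 (0.959) and RSM25 (0.955). The genes most like PHO89 were GAL3 (0.995), CRC1 (0.988) and AGP3 (0.985). For PHM8 they were EEB1 (0.988), PIC2 (0.985) and COX5B (0.984).

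Genes beside the members in RefSeq's R64 annotation were also read. Of 16 tested neighbours, 4 passed between strains under nitrogen limitation and 5 under carbon limitation. The shares of all tested genes that passed were similar, 22.2% and 28.1%. PHO3, beside PHO5 and itself a listed pathway gene, was the only neighbour that passed under both. Both neighbours of PHM6 were higher in the deletion strain under carbon limitation, RRP45 by 0.52 ± 0.19 (limma adjusted p = 0.0498) and MRX10 by 0.54 ± 0.16 (limma adjusted p = 0.0221), where PHM6 itself read 0.53 and missed the threshold. QCR6, next to PHO4, read -0.20 ± 0.16 between strains under carbon limitation and did not pass (limma adjusted p = 0.356). TUB3, next to PHO84, was higher there by 0.64 ± 0.21 (limma adjusted p = 0.0332), against 2.79 for PHO84. ARO9, next to SPL2 and an aromatic aminotransferase gene, was higher in the deletion strain under nitrogen limitation by 2.57 ± 0.22 (limma adjusted p = 1.15e-06), where SPL2 was below 12 in both strains. The other neighbours that passed were lower in the deletion strain. HMRA1, next to GIT1, changed by -0.91 ± 0.23 under carbon limitation (limma adjusted p = 0.00912). Under nitrogen limitation PCA1, next to PHO89, changed by -0.45 ± 0.15 (limma adjusted p = 0.0395). YCR099C, also next to GIT1, changed there by -0.49 ± 0.15 (limma adjusted p = 0.0277). The neighbours named, other than PHO3, were chosen after their values were seen and are given with all arrays only.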

How the data were processed

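Total RNA of chemostat cultures was measured on 12 Affymetrix arrays. Per the values, the authors deposited linear intensity for each probe set, with a trimmed mean of 150.1 to 150.14 on every array (2% left out at each end). The sources used here do not give the software or the background treatment. Of 9335 probe sets, 6504 name 1 gene, and a gene with several was represented by the brightest on the log2 scale. Intensity was floored at 12 before log2 was taken, and genes above 12 on at least 3 arrays were tested. One limma 3.58.1 model (R 4.3.3, lmFit and eBayes) held the 4 group means, with 8 residual degrees of freedom and 5 contrasts. Adjustment was by Benjamini-Hochberg over all 5321 genes, two-sided, with a threshold of 0.05, and the script was tested on simulated data. The number of arrays limits the precision. Groups share replicate numbers. Of 18 same-numbered pairs of arrays, 2 deviated together (r above 0.1), against 9 of 36 pairs with other numbers. The numbers were therefore not taken as pairs. Members and lists were chosen with earlier results of these data known. The genes named are the members, listed genes of the pathway (those that passed and some that did not), LEU3, mating-type markers, the 3 genes most like a member and some neighbours. Promoter and protein sequences were not analysed here. The alternatives varied the floor, the filter, the scaling, the probe set rule, the arrays in the model, array weights, the actin ratio and the replicate block.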

Additional observations from a re-analysis of the deposited data

Results flagged for a closer look

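For 9 genes the strain effect (deletion minus reference, log2) differed between the limitations by the limma interaction test at an adjusted p under 0.05. Among the members the nitrogen-limited minus the carbon-limited effect was -2.873 for PHO84, -2.321 for PHO4, -1.529 for PHM6 and -0.873 for VTC3. Among the other pathway genes it was 1.01 for PHO80, 1.011 for SDT1, -1.506 for PPN2, -0.935 for PPX1 and 0.98 for GPP1. With the actin ratio as a term, PHO4, VTC3, PHO80, PPN2 and PPX1 did not pass, and without N-lim reference arrays 2 and 3, PHO4, VTC3, SDT1, PPN2, PPX1 and GPP1 did not. PHO84 and PHM6 passed under all 24 other settings.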

How the results depend on the processing

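There were 24 other settings and 23 changes of members that passed. Of these, 11 passed in every setting and none turned its direction. The count of members passing was 5 for the strain effect under nitrogen limitation, and 1 without N-lim reference arrays 2 and 3. Under carbon limitation it was 3, and 1 with the actin ratio as a term, a ratio that did not overlap between the strains. For the limitation effect in the reference strain it was 6, and 3 with the actin term, 3 without N-lim reference arrays 2 and 3 and 3 without C-lim reference arrays 2 and 3. For the difference between the strain effects it was 4, and 2 with the actin term and 2 without N-lim reference arrays 2 and 3. Leaving out 1 array at a time gave 4 to 5, 3 to 4, 4 to 6 and 3 to 5 in that order, and 5 throughout for the limitation effect in the deletion strain.

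Values that turned their sign did not pass in either setting, except where PHO13 and VTC5 passed before. With the actin term these were GIT1 at -0.075 under nitrogen limitation, VTC3 at -0.014 and PHO13 at -0.26 under carbon limitation, PHO4 at -0.25 for the limitation effect in the reference strain and PHO89 at 0.062 for the difference. With centring they were PHO84 at 0.054 between strains under nitrogen limitation, and PHO81 at 0.014 and PHM6 at 0.032 for the limitation effect in the deletion strain. PHM6 was at 0.049 there with a floor of 25. VTC5 was at 0.000155 with its probe sets averaged. GIT1 was at 0.10 with a floor of 1 and 0.062 with quantile normalization for the limitation effect in the reference strain. PHO4 there was at -0.0046 without N-lim reference arrays 2 and 3 and -0.0067 without C-lim reference arrays 2 and 3, which also put the difference for PHO89 at 0.019. SPL2 had a difference of 0.55 with a floor of 1.

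Leaving out 1 array at a time gave -0.31 to 0.06 for PHO84 and -0.040 to 0.22 for GIT1 between strains under nitrogen limitation. It gave -0.11 to 0.054 for PHO81 and -0.17 to 0.11 for PHM6 in the deletion strain's limitation effect, and -0.24 to 0.83 for PHO4 and -0.18 to 0.14 for GIT1 in that of the reference strain. With the replicate block, 90 of 93 results were as before and no call of a member changed. The 3 that changed were VTC4 between strains under nitrogen limitation (-0.45, limma adjusted p = 0.061), SYG1 in the deletion strain (-0.37, limma adjusted p = 0.064) and GDE1 in the reference strain (0.37, limma adjusted p = 0.06). The cause of these changes was not tested. Over all genes, the number passing ranged from 715 to 2000 (1181) between strains under nitrogen limitation, 54 to 1852 (1494) under carbon limitation, 1436 to 2788 (1907) and 1289 to 2716 (2532) for the limitation effects in the deletion and reference strains, and 417 to 1465 (976) for the difference, with the main count in brackets. Intensities near 12, as for SPL2, GIT1 and the C-lim reference arrays of PHO84, limit what can be resolved.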
